A study of Mus musculus with 27 samples.

Results

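The expression of 9 genes of vitamin A uptake and retinoid metabolism was followed in mouse intestine lacking Taf4. The genes were Rbp2, Bcmo1 (listed as Bco1 in the tumours), Isx, Scarb1, Lrat, Stra6, Aldh1a1, Aldh1a2 and Aldh1a3. They were taken by gene name, and all 9 were found among the 27316 genes listed for embryos and adults, the 23597 listed for organoids and the 27179 listed for tumours. RNA-seq covered 27 libraries in 9 groups of 3. Taf4, a component of the TFIID complex that starts transcription of protein-coding genes, had been deleted in gut epithelium by Cre under the Villin promoter, so muscle, stroma and immune cells in the bulk samples kept the gene. Adult KO and adult WT ileum came from animals of 8 weeks, and embryo KO and embryo WT intestine from E17.5, all of strain C57Bl6/129sv. The labels give tamoxifen for both KO groups and sunflower oil for both WT groups, whereas the methods of the study describe a constitutive Villin-Cre in embryos, tamoxifen-inducible VilCreERT2 in adults, and tamoxifen for the adult controls too.

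Organoids were grown from ileal crypts of mice of 4 months by the methods. EPZ organoids received 1 µM 4-hydroxytamoxifen (4-OHT), which activates the inducible Cre, together with 1 µM EPZ-6438, a compound that blocks Ezh2, the methyltransferase of the Polycomb system, and were cultured for 11 days by their labels, or until a later day by the methods. 4-OHT organoids received 4-OHT alone, at 1 µM for 3 days by the labels of 2 of their 3 libraries, the label of library 1 giving the agent without dose or time. Control organoids received ethanol by their labels. The methods of the study describe the controls as floxed organoids without the inducible Cre that were given 4-OHT as well. The drug and the longer culture therefore cannot be told apart in EPZ organoids. Taf4KO-APC and APC tumours were ileal tumours of mice carrying the APCd14 allele, with and without deletion of Taf4, on a mixed 129SV and C57Bl/6 background, after tamoxifen at 6 to 8 weeks of age.

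For embryos, adults and organoids the values are the authors' group means of normalized counts, so a ratio of means is given as a description without an error or a test. A gene was compared where its higher mean reached 10, and a ratio is the log2 of (mean + 1) in the first group over (mean + 1) in the second. Tumour values are FPKM for each library, tested with limma. Library 3 of Taf4KO-APC, whose label joins the mouse numbers of libraries 1 and 2, behaved as a mixture of them. Of 1121 well expressed genes that differed by over 1.5-fold between libraries 1 and 2, 97.8% had their library 3 value between the other values, whereas the same share was 5.63% to 60.1% for the other 5 libraries. The Taf4KO-APC group thus may hold no more than 2 independent samples, and each tumour test of a named gene is given with and without library 3. Transcripts of the targeted gene were not lower in adult KO, embryo KO, 4-OHT organoids or Taf4KO-APC tumours, and were lower in EPZ organoids. Taf4a had 494 normalized counts in adult KO against 373 in adult WT, 299.5 in embryo KO against 226 in embryo WT, and 201 in EPZ and 286 in 4-OHT organoids against 264 in control organoids. Taf4 was at 13.01 to 13.92 FPKM in Taf4KO-APC tumours and 10.5 to 11.4 FPKM in APC tumours. A total over all exons does not resolve the deleted part, so this level checks no label. Group totals ran between 11.9 M and 16.6 M normalized counts (M, mega), and tumour libraries held 22.8 M to 39.0 M reads as recovered from the FPKM values.

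The intestine takes up vitamin A as carotenoids from plants and as retinol released from retinyl esters. Carotenoids enter enterocytes through the scavenger receptor Scarb1 and are cleaved to retinal by Bcmo1. Retinal and retinol are held in the enterocyte by the cellular binding protein Rbp2, and Lrat esterifies retinol for export in chylomicrons. Isx, a homeobox factor of the gut epithelium that retinoic acid induces, is known to repress Scarb1 and Bcmo1. Stra6 is a membrane receptor that takes retinol from its plasma carrier. The dehydrogenases Aldh1a1, Aldh1a2 and Aldh1a3 oxidise retinal to retinoic acid, the ligand of the retinoic acid receptors.

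On mouse build mm9 the members lay at chr9:98390956-98410190 (Rbp2, plus strand), chr8:119619754-119657397 (Bcmo1, plus), chr8:77396618-77417405 (Isx, plus), chr5:125757457-125821464 (Scarb1, minus), chr3:82696501-82707895 (Lrat, minus), chr9:57911595-58001803 (Stra6, plus), chr19:20676451-20717952 (Aldh1a1, plus), chr9:71063596-71144050 (Aldh1a2, plus) and chr7:73535778-73572403 (Aldh1a3, minus). Their summed exons spanned 672 bases in Rbp2 and 6291 bases in Scarb1, so levels of different genes are compared below per kilobase of exon. All are protein-coding, and none shared exon bases with a neighbouring gene.

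The RefSeq promoter windows of build GRCm38.p6, 250 bases before to 50 after the start, covered 7 of the 9 members in 11 windows. The 120 bases before the start are shown for the 3 members that differed most between 4-OHT and control organoids and for Isx, which the organoids hardly expressed. Capitals mark matches on either strand to the nuclear receptor hexamer AGGTCA, the core of the TATA box (TATAAA) and a binding site of Gata factors (AGATAA). A direct repeat of the hexamer with any 1 base between its copies was searched too.
Rbp2, chr9:98490417-98490536, plus strand: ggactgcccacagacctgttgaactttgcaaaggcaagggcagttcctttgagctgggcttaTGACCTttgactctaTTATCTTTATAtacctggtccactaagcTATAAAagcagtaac
Bco1, chr8:117095745-117095864, plus strand: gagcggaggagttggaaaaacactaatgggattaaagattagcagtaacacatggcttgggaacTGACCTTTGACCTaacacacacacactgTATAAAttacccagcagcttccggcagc
Aldh1a1, chr19:20601848-20601967, plus strand: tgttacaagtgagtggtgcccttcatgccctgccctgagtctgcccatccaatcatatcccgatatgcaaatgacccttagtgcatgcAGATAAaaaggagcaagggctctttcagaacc
Isx, chr8:74873054-74873173, plus strand: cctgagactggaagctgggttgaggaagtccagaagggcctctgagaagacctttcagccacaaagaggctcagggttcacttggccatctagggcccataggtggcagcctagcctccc

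Rbp2 and Bco1 were the members whose windows held both the nuclear receptor hexamer and the TATA core. Of all 32851 mouse windows, 16.3% held the hexamer and 13.6% the TATA core. In Bco1 the hexamer occurred as a direct repeat spaced by 1 base, a form present in 13 windows (0.0396%), which was added to the search after the sequences had been seen. The Gata site, found in 11.2% of all windows, matched in Rbp2, in 1 of the Aldh1a1 windows and in 1 of the 4 Stra6 windows, and in Rbp2 it overlapped a reverse TATA core by its outer base. A Cdx site (TTTATG, 11.9% of windows) matched in Bco1 alone, further upstream than the bases shown. An Hnf4 site (CAAAGTCCA) was found in 0.475% of windows and an Hnf1 site (GTTAAT) in 7.10%, and neither matched in a window of a member. The windows of Isx, Lrat and Aldh1a2 held none of the motifs. A match is a description of letters and not of a bound site.

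In the intestine of Taf4-deficient embryos, the binding protein Rbp2 and the esterifying enzyme Lrat were lower and the other members differed by less than 2-fold. Rbp2 had an authors' mean of 1424 normalized counts in embryo KO against 33229 in embryo WT, a 23.3-fold lower level (log2 ratio -4.54). Per kilobase of exon, Rbp2 ranked 12th of 27155 genes with a known length in embryo WT and 354th in embryo KO. Lrat, the next enzyme on the same route, had 106 in embryo KO against 304 in embryo WT (log2 ratio -1.51). With these, 2 of the 9 members were lower past 2-fold, while 8.32% of the 16484 genes compared were lower and 2.16% higher past 2-fold, 10.5% in all. None of the members was higher past 2-fold. The median log2 ratio was -0.03 over the members and 0.04 over all genes compared. Per kilobase, Rbp2 was the most abundant member in all groups except adult KO, where Aldh1a1 (721 per kilobase) and Rbp2 (707) were nearly level, and EPZ organoids, where the same genes had 707 and 686. Isx came next in embryo and adult WT, and Bcmo1 was the lowest of the members in both embryo groups.

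The members on the uptake side, Scarb1, Isx and Bcmo1, differed by less than 2-fold between embryo groups. Of 6 other brush border genes compared, 3 were lower past 2-fold and none higher, against 8.32% lower over all genes. Their median log2 ratio was -1.04. Scarb1 had 1714 in embryo KO and 1752 in embryo WT (log2 ratio -0.03), and its repressor Isx had 1140.3 against 1428 (log2 ratio -0.32). Bcmo1 was scarcely expressed, with 12.7 in embryo KO and 8.28 in embryo WT. Of the retinal dehydrogenases, Aldh1a1 had 784 in embryo KO and 709 in embryo WT, Aldh1a3 had 1010.0 against 1405 (log2 ratio -0.48), and Aldh1a2 had 606 against 352 (log2 ratio 0.78). Stra6 had 109.8 against 62.8 (log2 ratio 0.80). Beside the higher values of Aldh1a2 and Stra6, all 8 fibroblast and matrix markers (log2 ratios 0.34 to 0.86, summed level 172747 against 97677) and all 6 smooth muscle markers (0.44 to 0.65, summed level 70704 against 48757) were higher in embryo KO. Of all 16484 genes compared, 8779 had a higher mean. Endothelium markers had 4 higher and 1 lower, and mesothelium markers 4 higher and 2 lower. Dendritic cell and macrophage markers had 3 higher and 4 lower, and both T and NK cell markers compared were lower. The part of the cell makeup in these values was not tested, and in bulk tissue fewer cells of a type and less RNA per cell cannot be told apart.

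Enterocyte markers were lower alongside Rbp2 in embryo KO, 10 of the 16 compared by more than 2-fold and none higher, with a summed level over the 17 listed of 99563 against 307110. The epithelial genes Epcam (log2 ratio -0.70) and Cdh1 (-0.31) and the brush border gene Vil1 (-0.77) differed by less than 2-fold, whereas Apoa4, an apolipoprotein of lipid-absorbing enterocytes, had 2007 against 45399 and Alpi, the intestinal alkaline phosphatase, 509 against 7457. Of 5 markers of hepatocytes, 4 were lower past 2-fold in embryo KO and none higher. Alb had 7.73 in embryo KO against 608 in embryo WT and Ahsg 3.07 against 226.8, whereas Afp had 6907 against 7578. Their part in the lower Rbp2 and Lrat was not tested.

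**Figure D1:**
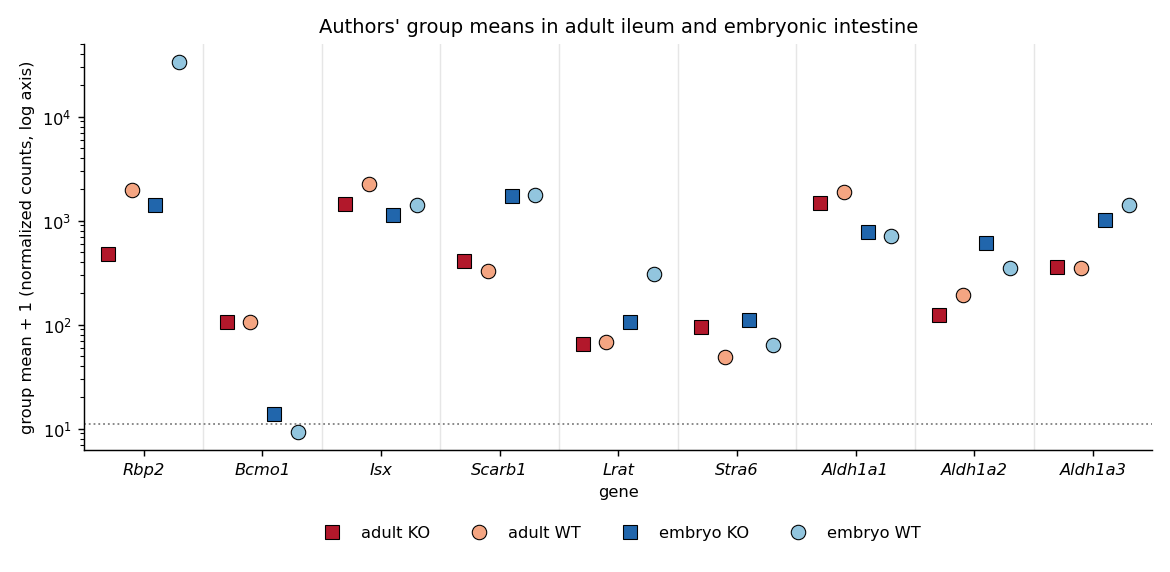
Authors' group means of the 9 members (vertical axis, mean + 1 in normalized counts, log axis) in adult KO, adult WT, embryo KO and embryo WT, 1 symbol for each group, with a dotted line at the minimum mean of 10. Rbp2 spans the widest range, 475 in adult KO against 1990.3 in adult WT and 1424 in embryo KO against 33229 in embryo WT, while Scarb1 and Aldh1a1 differ little between KO and WT of the same stage.

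In adult ileum Rbp2 was again the member furthest below its WT level, and it was the only one of the 9 past 2-fold. It had 475 in adult KO against 1990.3 in adult WT, 4.19-fold lower (log2 ratio -2.06). Of the 16748 genes compared, 6.58% were lower and 3.58% higher past 2-fold, 10.2% in all. Lrat, lower in the embryos, stood at 63.7 in adult KO and 66.7 in adult WT (log2 ratio -0.07). The difference between the stages in the KO-to-WT ratio was not tested, since no library values stood behind the means.

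Isx had 1429 in adult KO against 2266 in adult WT (log2 ratio -0.66), and the genes it is known to repress were close to level, Scarb1 with 412 against 329 (0.32) and Bcmo1 with 105 against 104 (0.02). Stra6 had 93.4 against 47.9, a log2 ratio of 0.95 that moved past 2-fold, to 1.12, when the groups were brought to equal totals. Aldh1a1 had 1480.2 against 1899 (-0.36), Aldh1a2 123 against 191 (-0.63) and Aldh1a3 358 against 346 (0.05). Of 16 enterocyte markers compared, 9 were lower and 1, the disaccharidase Sis, was higher past 2-fold in adult KO. All 6 T and NK cell markers were lower past 2-fold, with a summed level of 1041 against 3933, and 3 of the 4 Paneth markers were lower. The 8 fibroblast and 6 smooth muscle markers were all within 2-fold.

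More members differed past 2-fold between the stages than between the genotypes of the tissue. The same held for all genes compared, with 33.4% (WT) and 36.3% (KO) between the stages. Between the genotypes it was 10.5% in embryos and 10.2% in adults. Between adult WT and embryo WT, 6 of the 9 members differed past 2-fold, while 33.4% of the 17381 genes compared did, 18.3% higher and 15.2% lower in adults. Rbp2 was 16.7-fold lower in adult WT, and the other lower members were Scarb1 (329 in adult WT against 1752 in embryo WT, log2 ratio -2.41), Lrat (66.7 against 304, -2.17) and Aldh1a3 (346 against 1405, -2.02). Bcmo1 was 12.6-fold higher in adult WT, with 104 against 8.28, and Aldh1a1 2.68-fold higher, with 1899 against 709. Isx had 2266 in adult WT against 1428 in embryo WT (0.67). The Isx ratio was thus within 2-fold, and it was 0.33 with equal totals. Its relation to the lower Scarb1 and the higher Bcmo1 was not tested. Aldh1a2 had 191 against 352 (-0.88) and Stra6 47.9 against 62.8 (-0.38). The adult samples were ileum, whereas the embryonic ones were intestine by the labels and small intestine by the methods, so stage and gut region cannot be told apart.

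Between adult KO and embryo KO the same calculation gave 5 members past 2-fold, against 36.3% of 17312 genes. Bcmo1 was higher (105 against 12.7, log2 ratio 2.95), and Scarb1 (412 against 1714, -2.05), Aldh1a2 (123 against 606, -2.29), Aldh1a3 (358 against 1010.0, -1.49) and Rbp2 (475 against 1424, -1.58) were lower. The KO and WT stage comparisons share no samples with each other, but each shares its groups with the genotype comparisons above.

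The makeup of the retinal dehydrogenases also differed by stage. Of the summed level of Aldh1a1, Aldh1a2 and Aldh1a3 per kilobase, Aldh1a1 took 84.5% in adult KO and 85.3% in adult WT, against 44.0% in embryo KO and 42.9% in embryo WT. Aldh1a2, the form known from embryonic mesenchyme, took 30.8% in embryo KO and 19.3% in embryo WT, and Aldh1a3 took 25.2% in embryo KO and 37.8% in embryo WT. In organoids, which are epithelium without stroma, Aldh1a1 took at least 99.6% in every group.

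**Figure D2:**
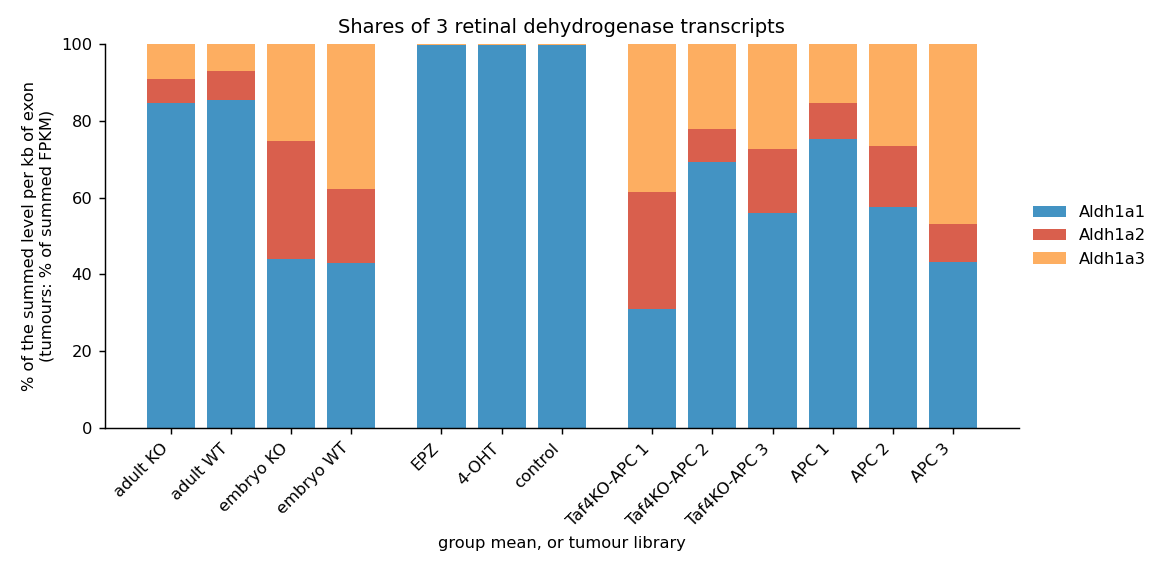
Share of each of 3 retinal dehydrogenase transcripts in their summed level (vertical axis, percent of normalized counts per kilobase of exon, or of FPKM in tumours) in each group mean and each tumour library (horizontal axis). Aldh1a1 fills nearly the whole bar in organoids, 84.5% and 85.3% in adult KO and adult WT, and 31.0% to 75.3% over the 6 tumour libraries.

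In 4-OHT organoids the binding protein differed from control in the opposite direction to the tissue. Taf4 deletion there cannot be told apart from 4-OHT itself by the labels, or from the inducible Cre by the methods. Rbp2 had 14533 normalized counts in 4-OHT organoids against 976 in control organoids, 14.9-fold higher (log2 ratio 3.90), and ranked 49th of 23467 genes per kilobase in 4-OHT organoids and 653rd in control organoids. Aldh1a1 had 7012 in 4-OHT organoids against 587 in control organoids, 11.9-fold higher (log2 ratio 3.58). Bcmo1 had 248 against 41.1 (2.56) and Aldh1a3, at a low level, 22.2 against 3.69 (2.31). Scarb1 had 3822 against 2317 (0.72) and Lrat 36.5 against 22.8 (0.65). Thus 4 of the 6 members compared were higher past 2-fold and none was lower, while 11.9% of the 13929 genes compared were higher and 11.3% lower, 23.2% in all. The other 3 members stayed under the minimum of 10. Isx had 0 in 4-OHT and 0.247 in control organoids, Stra6 3.82 and 1.66, and Aldh1a2 0.142 and 0.355, so no ratio is given for them. Aldh1a3 was compared only through its 4-OHT mean, its control mean being under 10. With a minimum mean of 50 instead, the count of members past 2-fold was 3, against 18.9% of all genes.

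Markers of mature enterocytes stood higher with these members, 14 of 17 past 2-fold and none lower, with a summed level of 199347 in 4-OHT against 57661 in control organoids. The leading genes were Fabp1, a fatty acid binding protein, at 18866 against 724 and Fabp2 at 14863 against 1176. All 5 markers of dividing cells and all 4 stem cell markers were lower past 2-fold, with Olfm4 at 152 against 4947. The share of enterocytes in the higher Rbp2 was not tested.

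In EPZ organoids all 6 members compared had a lower mean than in 4-OHT organoids. Rbp2 had 461 in EPZ against 14533 in 4-OHT organoids, 31.5-fold lower (log2 ratio -4.97). Aldh1a1 had 1452 against 7012 (-2.27), Lrat 9.06 against 36.5 (-1.90), Bcmo1 69.5 against 248 (-1.82), Scarb1 1546 against 3822 (-1.31) and Aldh1a3 12.4 against 22.2 (-0.79). Of the 6 members compared, 5 were lower past 2-fold and none higher, while 18.0% of 14109 genes were lower and 17.2% higher, 35.2% in all. The enterocyte markers were lower as well, 15 of 17 past 2-fold with a summed level of 50392 against 199347, and all 5 markers of dividing cells were higher.

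Set against control organoids, the members of EPZ organoids differed in both directions. Rbp2 had 461 in EPZ against 976 in control organoids (log2 ratio -1.08) and Lrat 9.06 against 22.8 (-1.24), both lower past 2-fold. Aldh1a1 had 1452 against 587 (1.31) and Aldh1a3 12.4 against 3.69 (1.52), both higher past 2-fold. Scarb1 (1546 against 2317, -0.58) and Bcmo1 (69.5 against 41.1, 0.74) lay within 2-fold. In all, 4 of 6 members were past 2-fold, against 25.7% of 14001 genes. Lrat and Aldh1a3 rest on means near 10 here, and only Rbp2 and Aldh1a1 of the 4 remained past 2-fold with a pseudocount of 10. The 3 organoid comparisons share their groups and are not independent of each other.

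**Figure D3:**
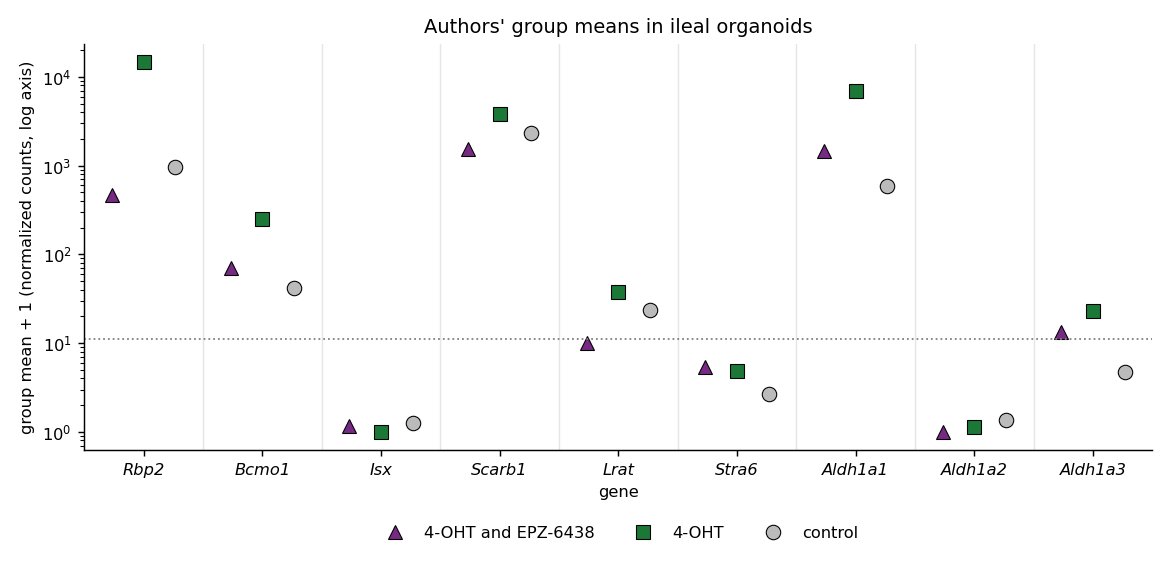
Authors' group means of the 9 members (vertical axis, mean + 1 in normalized counts, log axis) in EPZ, 4-OHT and control organoids, with a dotted line at the minimum mean of 10. Rbp2 (14533) and Aldh1a1 (7012) peak in 4-OHT organoids, and Isx, Stra6 and Aldh1a2 lie under the line in every group.

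The level of 3 members separated the organoids from the tissue. Isx was among the most abundant members in tissue, with 1429 in adult KO and 2266 in adult WT, yet did not exceed 0.247 in any organoid group although all organoids came from ileal crypts. Aldh1a2 had 123 to 606 in tissue and at most 0.355 in organoids, and Stra6 47.9 to 109.8 in tissue and at most 4.38 in organoids. The tables were normalized separately, so these levels are set side by side without a ratio. The organoids had little RNA of other cells, with a summed level of 22.2 to 55.6 over 7 fibroblast and matrix markers and of 34.3 to 54.7 over 6 smooth muscle markers.

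**Figure D4:**
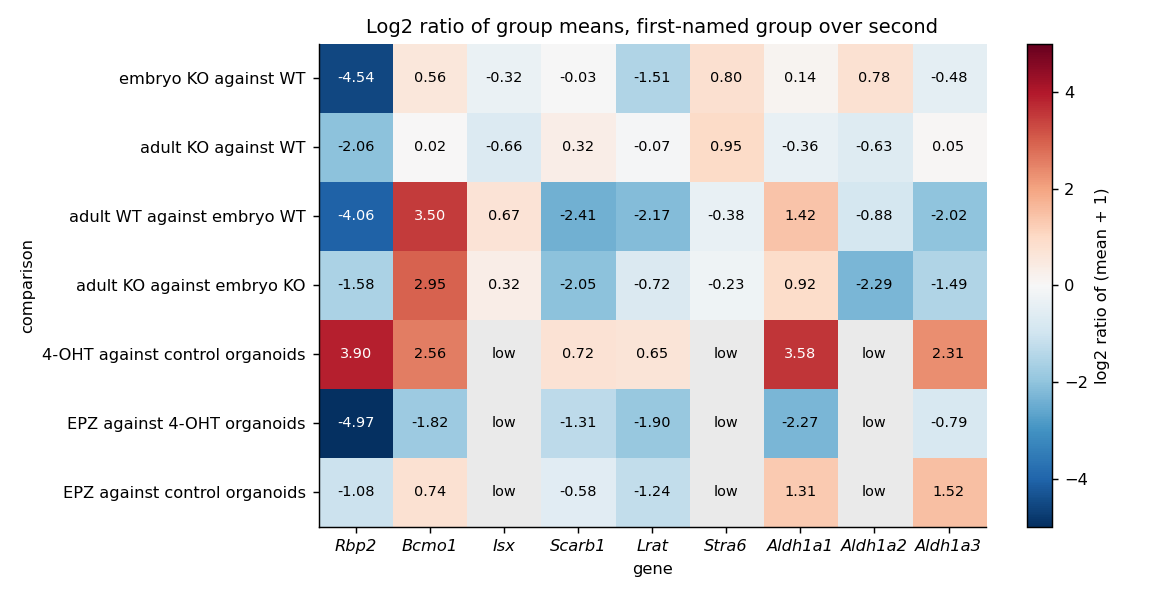
Log2 ratio of group means for each member (columns) in each comparison (rows), first-named group over the second, with red for higher and blue for lower and "low" where both means were under 10. Rbp2 is the only member with a log2 ratio beyond 1 in all 7 comparisons, negative in every row except 4-OHT against control organoids (3.90).

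Over the 7 group means, centred within each table, the members had distinct patterns. Rbp2 was closest to Lrat among the members (Pearson r = 0.91), and Bcmo1 to Aldh1a1 (r = 0.81). Lrat and Bcmo1 each had 1 of their 7 means under 10 (9.06 in EPZ organoids for Lrat and 8.28 in embryo WT for Bcmo1). No such value is given for Isx, Stra6 or Aldh1a2, whose 3 organoid means were all under 10, or for Aldh1a3, with 3.69 in control organoids. Among 13728 genes, those most like Rbp2 were Kidins220 (r = 0.99), Zfp707 (r = 0.98) and Plin3 (r = 0.98). For Aldh1a1 they were Mdm2 (r = 1.00), Cyp2d22 (r = 0.99) and Plekho2 (r = 0.99). With 7 points that share 2 normalizations, such values are reached by many genes and describe only the order of the means.

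The wider retinoid route gave the following counts. Of 8 other genes handling carotenoids and lipids at the brush border, 6 were compared in embryos, 3 being lower and none higher past 2-fold in embryo KO, and 7 in adults, 4 being lower and none higher in adult KO. Over all genes compared, 8.32% were lower in embryos and 6.58% in adults. Those in embryos were Bcdo2, Cd36 and Npc1l1, and those in adults Npc1l1, Plb1, Pnliprp1 and Pnliprp2. Bcdo2, which cleaves carotenoids away from their centre, had 34.3 in embryo KO against 255 in embryo WT, and 633 in 4-OHT against 53.9 in control organoids. Npc1l1, the sterol transporter of the brush border, had 758 against 2071 in embryos, 1950.4 against 5158 in adults, and 4769 in 4-OHT against 1129 in control organoids. Of the 5 genes of this list compared between 4-OHT and control organoids, 2 were higher (Bcdo2 and Npc1l1) and 1 lower past 2-fold (Pnliprp1, 5.21 against 24.9). Over all genes, 11.9% were higher and 11.3% lower. Of the 6 compared between EPZ and 4-OHT organoids, 2 were higher and 3 lower, against 17.2% higher and 18.0% lower over all genes. Pnliprp2, a lipase that can hydrolyse retinyl esters, had 103 in adult KO against 929.6 in adult WT. Of 4 genes of esterification and ester hydrolysis compared in embryos, 2 were lower past 2-fold and none higher in embryo KO. Of 5 compared in adults, 1 was higher and none lower in adult KO. All 3 compared between 4-OHT and control organoids were higher. Of 4 compared between EPZ and 4-OHT organoids, 1 was higher and 3 lower. The shares over all genes were as above, with 3.58% higher in adults.

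Among 21 retinol and retinal redox enzymes, 2 of 13 compared were lower in embryo KO, 6 of 17 lower and 1 higher in adult KO, and 7 of 15 higher and 1 lower in 4-OHT organoids. The shares over all genes were 8.32% lower in embryos, 6.58% lower and 3.58% higher in adults, and 11.9% higher and 11.3% lower in 4-OHT organoids. Dhrs9, a retinol dehydrogenase, had 22.3 in embryo KO against 102 in embryo WT and 15.3 in adult KO against 113 in adult WT. Rdh7 had 25.7 in adult KO against 107 in adult WT. Adh1, a cytosolic alcohol dehydrogenase that oxidises retinol, had 1149.5 in 4-OHT against 327 in control organoids and 47.9 in EPZ organoids against 1149.5 in 4-OHT organoids. Of 8 binding proteins and receptors compared in embryos, 5 had a higher and 3 a lower mean in embryo KO, with a median log2 ratio of 0.45, and the 2 past 2-fold were both lower. Stra6l, an intestinal and hepatic retinol receptor, had 295 in embryo KO against 1038 in embryo WT, and the plasma carrier Ttr 35.7 against 653 beside the hepatocyte markers given above. Of 7 binding proteins and receptors compared in adults, 3 had a higher and 4 a lower mean in adult KO, none past 2-fold. Their median log2 ratio was -0.41 against -0.05 over all genes. All 4 compared in organoids had a lower mean in 4-OHT than in control organoids, 1 past 2-fold (Fabp5, 469 against 2096). Rbp7 had 159.6 in EPZ against 10.5 in 4-OHT and 12.0 in control organoids.

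All 5 nuclear receptors compared were within 2-fold in both genotype comparisons, as was Cyp26b1, an enzyme that degrades retinoic acid, with 114 in embryo KO and 80.9 in embryo WT. Of 8 textbook target genes of retinoic acid compared in embryos, 6 had a higher mean in embryo KO, none past 2-fold. Their median log2 ratio was 0.51 against 0.04 over all genes. Of 7 compared in adults, 1 had a higher and 6 a lower mean in adult KO. The median there was -0.21 against -0.05 over all genes. Of all genes compared, 8779 of 16484 had a higher mean in embryo KO and 7394 of 16748 in adult KO. Among the targets, 1 of 8 was lower past 2-fold in embryo KO (Rarres1, with 6.61 against 20.2 in embryo WT) and 1 of 7 in adult KO (Tgm2, with 2086 in adult KO against 4315 in adult WT). Over all genes, 8.32% were lower in embryos and 6.58% in adults. Among 21 intestinal transcription factors, 4 were lower past 2-fold in embryo KO and none higher, against 8.32% lower over all genes. They were Creb3l3, a regulator of lipid genes (836 against 10396), Vdr, the vitamin D receptor (316 against 985), Ppara, the fatty acid receptor (309 against 686), and Nr1h4, the bile acid receptor (828 against 1752). In 4-OHT organoids 4 of the 21 were higher and 3 lower past 2-fold, with a median log2 ratio of -0.25 and 11.9% higher and 11.3% lower over all genes. Creb3l3 (3838 against 498 in control), Ppara (700.0 against 164), Nr1h4 (583 against 143) and Hnf4g (1605 against 420.3) were higher, and Cdx2 (1101 against 2493), Foxa2 (95.2 against 389.5) and Pdx1 (0 against 28.6) had lower means. In EPZ organoids 1 of 20 was higher and 9 were lower past 2-fold against 4-OHT organoids, with Creb3l3 at 108 against 3838. Over all genes compared there, 17.2% were higher and 18.0% lower. Cdx2 and Hnf4a were within 2-fold in both genotype comparisons of tissue.

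In Apc tumours no member passed the thresholds of an adjusted p under 0.05 and a log2 difference over 1 between Taf4KO-APC and APC (limma on log2(FPKM + 1), Benjamini-Hochberg over 13794 genes). Rbp2 had 196, 866 and 533 FPKM in Taf4KO-APC libraries 1 to 3 against 399.6, 1511 and 1804 FPKM in APC libraries 1 to 3. The groups overlapped, since APC library 1 was below Taf4KO-APC libraries 2 and 3. The log2 difference was -1.19 ± 0.76 (SE), with an adjusted p of 0.338 by limma, and -1.32 with an adjusted p of 0.498 without library 3. Leaving out each library in turn gave -1.88 (without APC library 1) to -0.60 (without Taf4KO-APC library 1). Rbp2 remained the most abundant of the members in every tumour library and ranked between 18th and 337th of all genes listed. Summed enterocyte markers, like Rbp2, were lowest in library 1 of each group, with 3226, 9272 and 6214 FPKM in Taf4KO-APC and 6604, 15359 and 9614 FPKM in APC. Within APC, however, Rbp2 was highest in library 3 and the summed markers in library 2. The part of the markers in the Rbp2 values was not tested.

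Aldh1a3 was the only member whose groups did not overlap. It had 14.5, 12.0 and 12.6 FPKM in Taf4KO-APC tumours against 5.68, 7.65 and 7.96 FPKM in APC tumours, a mean of 13.05 ± 1.27 against 7.10 ± 1.24 (SD, n = 3 each). Its log2 difference was 0.80 ± 0.15 (SE), under the size threshold, with an adjusted p of 0.0615 by limma and of 0.289 without library 3. Groups failed to overlap in 35.4% of the genes tested, so the count of 1 in 7 members lay below the background.

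Aldh1a2 had 11.4, 4.54 and 7.69 FPKM in Taf4KO-APC against 3.47, 4.55 and 1.70 FPKM in APC tumours (log2 difference 1.05 ± 0.38, adjusted p = 0.156 by limma, and 0.388 without library 3). Its higher mean rested on Taf4KO-APC library 1 and on library 3, which shares that mouse number, while library 2 lay within the APC range. Stra6 ranked second among the members in 5 of the 6 tumour libraries, with 132, 51.0 and 89.8 FPKM in Taf4KO-APC and 24.1, 85.2 and 74.0 FPKM in APC tumours (0.65 ± 0.56, adjusted p = 0.468 by limma, and 0.655 without library 3). Aldh1a1 had 11.7, 37.6 and 25.8 FPKM against 28.0, 16.6 and 7.36 FPKM (0.54 ± 0.58, adjusted p = 0.553 by limma, and 0.744 without library 3). For Stra6 and Aldh1a1 the spread within each group exceeded the difference between the groups. Without APC library 1 the difference of Stra6 was 0.090, and without APC library 3 that of Aldh1a1 was 0.062.

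Scarb1 had 16.2, 11.4 and 14.8 FPKM in Taf4KO-APC against 8.96, 12.0 and 10.3 FPKM in APC tumours (0.41 ± 0.17, adjusted p = 0.186 by limma, and 0.435 without library 3). Isx had 19.1, 31.4 and 26.0 FPKM against 41.2, 20.3 and 28.6 FPKM (-0.20 ± 0.29, adjusted p = 0.668 by limma, and 0.750 without library 3), and its sign turned, to 0.051, without APC library 1. Bco1 (0.355 to 0.645 FPKM in Taf4KO-APC and 0.559 to 0.926 FPKM in APC) and Lrat (0.221 to 0.530 and 0.360 to 1.21 FPKM) stayed under the minimum group mean of 1 FPKM and were not tested.

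**Figure D5:**
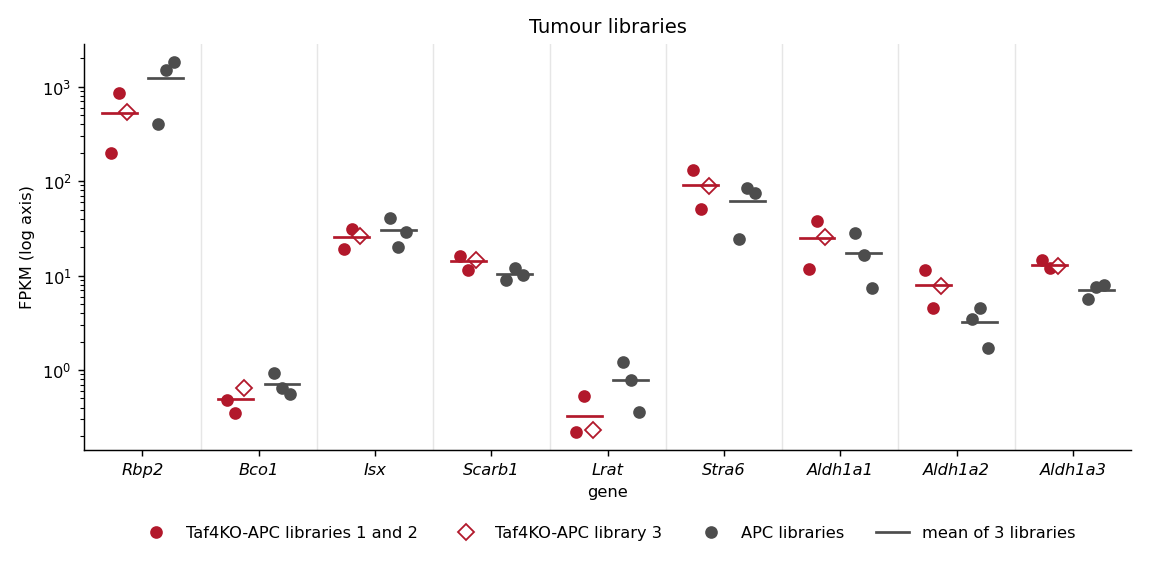
FPKM of the 9 members (vertical axis, log axis) in each tumour library, with Taf4KO-APC on the left and APC on the right for each gene, horizontal lines at the group means, and an open diamond for library 3 of Taf4KO-APC. Aldh1a3 is the only gene with separate groups (12.0 to 14.5 against 5.68 to 7.96 FPKM), and library 3 lies between libraries 1 and 2 for all members except Bco1.

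The count of 0 members compares with 85 of 13794 genes past the thresholds (0.616%), 19 higher (0.138%) and 66 lower (0.478%). At an unadjusted p under 0.05, 2 of the 7 members tested (Aldh1a2 and Aldh1a3) and 27.0% of all genes passed, and limma voom on reads recovered from the FPKM gave 0 members past the thresholds too, with 3 at an unadjusted p under 0.05. The count of 85 genes became 0 without Taf4KO-APC library 3, 0 without library 2 and 2 without library 1. The median difference over all genes was 0.14 on the log2 scale, and it was not subtracted from the member values above. After the libraries were rescaled to a median ratio of 0, the differences were 0.68 for Aldh1a3, 0.94 for Aldh1a2 and 0.28 for Scarb1. They were 0.51 for Stra6, 0.41 for Aldh1a1, -0.33 for Isx and -1.33 for Rbp2. In the other lists, 1 brush border gene passed, Plb1, a phospholipase of the brush border that can hydrolyse retinyl esters. It had 0.316, 1.24 and 0.760 FPKM in Taf4KO-APC against 11.1, 22.3 and 31.6 FPKM in APC tumours (log2 difference -3.59, adjusted p = 0.0328 by limma, and 0.220 without library 3). The enterocyte peptidase Mep1a also passed, at 4.46 to 5.53 against 58.6 to 146 FPKM (adjusted p = 0.0215 by limma, and 0.197 without library 3). Both calls were also lost without Taf4KO-APC library 1, without Taf4KO-APC library 2 and without APC library 2. No nuclear receptor, redox enzyme or intestinal transcription factor of the lists passed. Each of the 6 T and NK cell markers had groups that did not overlap, as did 35.4% of the genes tested. None of the 6 passed the thresholds. Their summed level was 11.4, 16.6 and 13.4 FPKM in Taf4KO-APC against 155, 51.8 and 25.4 FPKM in APC tumours. It was thus highest in APC library 1.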

How the data were processed

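Per the labels and the methods of the study, adapters were cut by the authors (cutadapt 1.10), reads of ribosomal origin were dropped (Bowtie2 2.2.8), the remainder was mapped to mm9 (STAR 2.5.3a) and HTSeq gave a count per gene. For embryos, adults and organoids the deposited signal is 1 mean per gene and group of counts divided by median-of-ratios size factors, so no spread between libraries could be computed. The tumour values are the authors' FPKM of each library, for which the labels list mm9 and mm10. Columns with the authors' own log2 fold changes and adjusted p-values were not used.

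Ratios of group means used a pseudocount of 1 and a minimum mean of 10. Levels per kilobase used the summed exons of the Ensembl annotation of mm9. Tumour FPKM were tested on log2(FPKM + 1) with limma 3.58.1 in R 4.3.3 (two-sided, Benjamini-Hochberg, genes whose mean reached 1 FPKM in either group), after the script was tested on simulated data. Whole reads were recovered from all 115487 FPKM values above 0 (tolerance 0.001 reads). By the methods of the study, embryo and adult libraries came from 3 mice a group and organoid libraries from 3 wells. Each tumour label carries a mouse number, except that of Taf4KO-APC library 3, which joins 2.

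All 9 members are named in every comparison. From each other list at most 4 genes per comparison were named, those with the largest ratio and a mean of at least 50 (in tumours those past the thresholds), and further genes were named after their values were seen where a count was small or a marker bore on a result. The members and lists were chosen with earlier results of these data known.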

Additional observations from a re-analysis of the deposited data

How the results depend on the processing

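Counts of members past 2-fold between group means stayed within 1.5 times the reported count in 32 recalculations and did not in 3, and the percent of all genes past 2-fold did so in all 35. The adult KO count became 2 (from Stra6) with equal column totals, against 1, and the EPZ against control count became 2 with a pseudocount of 10 and 2 with a mean of at least 50, against 4. Among single members, 258 values kept their side of 2-fold and 5 did not. With equal totals Stra6 in adults became 1.12, Aldh1a2 in adult WT against embryo WT -1.22 and Lrat in adult KO against embryo KO -1.02, and with a pseudocount of 10 Lrat and Aldh1a3 in EPZ against control became -0.79 and 0.71. Equal totals moved the median of all genes to 0.18 in embryos, 0.13 in adults, -0.33 and -0.28 between the stages in WT and KO, -0.12 for 4-OHT against control and -0.21 for EPZ against control. The share of higher genes among those past 2-fold became 32.0% against 20.6% in embryos, 47.9% against 35.2% in adults, 39.4% against 54.6% and 39.3% against 52.7% between the stages in WT and KO, and 33.4% against 48.2% for EPZ against control.

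In tumours no member passed the thresholds under any alternative run. The count of genes was 85 as reported, 0 to 180 when each library was left out in turn, 28 by limma voom on recovered reads and 78 after rescaling, where 11.5% instead of 22.4% were higher. With each library left out in turn, the log2 difference was -0.44 to 0.051 for Isx, -1.88 to -0.60 for Rbp2, 0.090 to 1.01 for Stra6, 0.062 to 0.99 for Aldh1a1, 0.76 to 1.36 for Aldh1a2, 0.67 to 0.88 for Aldh1a3 and 0.31 to 0.54 for Scarb1. With the replicate number as a replicate block the count was 1, but the numbers mark no shared origin, and same-numbered libraries had correlations of deviations of -0.17, -0.20 and -0.04. The cause of these differences was not tested. Group means carry no error, the tumour groups hold 3 libraries each with library 3 of Taf4KO-APC lying between the other libraries, and Bco1 and Lrat were too low to test.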

Other observations

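Ezh2, the enzyme that EPZ-6438 blocks, had an authors' mean of 1594 normalized counts in EPZ organoids, 671 in 4-OHT organoids and 1249 in control organoids. Taf4b, the paralog of Taf4, had 101 in EPZ organoids, 53.5 in 4-OHT organoids and 58.8 in control organoids, and 59.7 in adult KO against 39.5 in adult WT. In adult tissue the disaccharidase Sis differed from most other enterocyte markers, with 25500 in adult KO against 6267 in adult WT, and it had 23279 in 4-OHT against 2834 in control organoids. Paneth markers summed to 1277, 2200 and 1817 FPKM in Taf4KO-APC tumours against 6811, 1109 and 1587 FPKM in APC tumours, so APC library 1, which had the lowest Rbp2 of its group, stood apart from the other APC libraries.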
